A study of Mus musculus with 18 samples.

Results

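Hepatocytes take bile acids, bilirubin and many drugs out of portal blood and pass them into bile, and a small set of membrane carriers does most of this work. The carriers described here are 10 genes out of the 16245 in the deposited liver table: the uptake carriers Slc10a1, Slco1a1, Slco1a4, Slco1b2 and Slco2b1, the canalicular pumps Abcb11, Abcc2 and Abcb4, and the basolateral pumps Abcc3 and Abcc4. They were chosen by name for their function, with the exception that Slco1a1 was also known beforehand to differ strongly with GDF15, so its levels in the GDF15 samples are a description and carry no test. The choice was made with earlier results of these data known.

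RNA from whole liver was sequenced in 18 libraries, 6 from each of 3 groups. All mice were wild-type C57BL/6 (male C57BL/6J in the study's methods) that ate a NASH diet, a diet rich in fat and fructose that brings on fatty and inflamed liver, in rooms at about 29 °C from 8 weeks of age, and all were caged singly before treatment. The GDF15 group received recombinant GDF15, a stress-induced hormone that lowers food intake, under the skin once a day. The labels name doses of 0.3, 1 and 5 nmol/kg without saying which dose belongs to which library, and the study's text and figure legend name different doses for these samples. The vehicle group received no GDF15, and each mouse of the pair-fed group was given the amount of food that GDF15-treated mice had eaten on the day before. The age at collection and the pair-fed injection are not given in the labels. The study describes the libraries of a group as coming from different mice.

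The total was 16508864 to 35301853 counts per library, and the lowest raw count of any of the 10 genes in any library was 22, so counting error was small except for Abcc4 and for Slco1a1 in its lowest libraries (47 and 55 raw counts in vehicle replicate 2 and pair-fed replicate 1). Pair-fed replicates 4 to 6 were the deepest libraries, with 25047723 to 35301853 counts against 17180057 to 17926397 for pair-fed replicates 1 to 3. In the GDF15 group, replicates 4 to 6 held 16508864 to 19108435 counts and replicates 1 to 3 held 21050932 to 25001486. The labels name no batch. Values below are counts divided by DESeq2 size factors (normalized counts) unless a sentence says otherwise, and a gene is said to have risen, fallen or changed when the DESeq2 Wald test gave a Benjamini-Hochberg adjusted p below 0.05 over all genes tested.

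Bile acids circulate between liver and gut. Slc10a1 encodes NTCP, which brings conjugated bile acids into the hepatocyte together with sodium, while the Slco genes encode organic anion transporting polypeptides, which take up unconjugated bile acids, steroid conjugates, bilirubin and drugs without sodium. At the canalicular face Abcb11 encodes BSEP, the pump that drives bile salts into bile, Abcc2 exports glucuronide and glutathione conjugates, and Abcb4 moves phosphatidylcholine into bile. Abcc3 and Abcc4 sit on the blood side and return conjugates and bile acids to the circulation, and both are known to be raised when bile flow is blocked.

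Positions are those of the mm10 build. Slco1a1 (ENSMUSG00000041698.11) spanned chr6:141907282-141946962 and Slco1a4 (ENSMUSG00000030237.14) chr6:141805440-141856199, both on the minus strand. Slco1b2 (ENSMUSG00000030236.10) lay in the same cluster on the plus strand at chr6:141629518-141686646. The other carriers lay apart, Slc10a1 at chr12:80953183-80968705, Abcb11 at chr2:69238282-69342616, Abcb4 at chr5:8893717-8959231, Abcc3 at chr11:94343295-94392997, Abcc4 at chr14:118482692-118706219, Abcc2 at chr19:43782192-43840740 and Slco2b1 at chr7:99657804-99711340. Because the Slco genes of the cluster are similar, their transcripts were compared in windows of 31 bases. Slco1a1 shared 3.51% of its windows with another Slco1 gene and Slco1a4 shared 4.1%, mostly with Slco1a5, so a small part of their reads could be assigned to either copy. Each of the other 8 genes shared 0% of its windows with the genes compared.

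RefSeq start sites (GRCm38.p6) were matched for 9 of the 10 genes. The 250 bases before the start site are shown for the 3 carriers with the highest GDF15-to-vehicle ratios, Slco1a1, Slc10a1 and Abcb11, and for Slco1a4, the neighbour of Slco1a1 whose levels did not follow it. The windows are on the minus strand at chr6:141946963-141947212, chr12:80968706-80968955, chr2:69342617-69342866 and chr6:141856221-141856470, in that order. Capitals mark matches, on either strand, to the half-site AGGTCA of nuclear receptors or to the palindrome TTCNNNGAA that STAT5 recognises.
Slco1a1: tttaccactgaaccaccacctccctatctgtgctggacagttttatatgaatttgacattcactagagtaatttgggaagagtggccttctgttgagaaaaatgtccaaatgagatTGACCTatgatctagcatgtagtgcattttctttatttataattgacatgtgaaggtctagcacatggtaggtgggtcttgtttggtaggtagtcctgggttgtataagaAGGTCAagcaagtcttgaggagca
Slc10a1: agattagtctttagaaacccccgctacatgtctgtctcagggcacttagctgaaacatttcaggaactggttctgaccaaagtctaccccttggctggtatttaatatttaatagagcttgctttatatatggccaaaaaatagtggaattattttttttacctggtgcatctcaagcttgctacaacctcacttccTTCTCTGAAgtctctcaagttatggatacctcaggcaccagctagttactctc
Abcb11: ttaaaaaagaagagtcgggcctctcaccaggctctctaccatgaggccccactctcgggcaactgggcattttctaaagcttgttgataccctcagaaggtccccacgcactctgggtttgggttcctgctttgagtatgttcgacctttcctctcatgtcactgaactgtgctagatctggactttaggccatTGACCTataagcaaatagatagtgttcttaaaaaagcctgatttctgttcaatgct
Slco1a4: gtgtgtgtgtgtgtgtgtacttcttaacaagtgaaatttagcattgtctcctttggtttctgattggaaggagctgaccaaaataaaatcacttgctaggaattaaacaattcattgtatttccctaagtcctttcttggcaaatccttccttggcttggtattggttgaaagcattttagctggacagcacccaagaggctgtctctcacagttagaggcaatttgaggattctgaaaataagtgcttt
The half-site stood at -134 and -24 from the Slco1a1 start and at -56 from the Abcb11 start. It was present in 4 of the 9 windows and in 14.0% of all 32851 windows of the same length. The windows with it that are not shown were those of Slco1b2 and of Abcc2, which did not pass in either GDF15 comparison. The STAT5 palindrome stood at -53 in Slc10a1. It was found in 2 of the 9 windows, the other being that of Slco1b2, against 7.02% of all windows. The letters GTTAAT, a half-site of the regulator HNF1, were found in 1 of 9, that of Slco1b2, against 6.43% of all. The same search with the exact inverted repeat of AGGTCA with 1 base between, the consensus element of the bile acid receptor FXR, gave 0 of 9 windows. Inexact copies were not searched for, and only 2 of the 32851 windows (0.00609%) held the exact letters. This 0 therefore cannot tell whether a carrier has an FXR element. With TGACNNNGC, the core of the antioxidant response element, the search gave 2 of 9 (10.2% of all), neither of them among the 4 shown. The Slco1a4 window held none of these letters. A match is a run of letters, and no binding was measured here.

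Levels of different genes were compared per kilobase of longest transcript. In vehicle liver Slco1b2 was at 5755 ± 618 normalized counts per kb (mean ± SD, n = 6) and Slc10a1 at 5120 ± 1630, and the ranges of these 2 uptake carriers overlapped. The canalicular pumps followed, with Abcb4 at 2028 ± 124, Abcb11 at 1789 ± 400 and Abcc2 at 1333 ± 184 per kb. Abcc3 was at 1695 ± 86.3 per kb, and Abcb4, Abcb11, Abcc3 and Abcc2 each overlapped the next in rank. Slco2b1 at 959 ± 93.6 per kb lay below Abcc2 and above Slco1a4 with no overlap. Slco1a4 at 280 ± 48.5, Slco1a1 at 98.0 ± 142 and Abcc4 at 14.3 ± 6.16 per kb were the least abundant, again with overlapping neighbours. In GDF15 liver Slc10a1 stood first at 9149 ± 817 per kb and above Slco1b2, at 6889 ± 855, in 6 of 6 libraries, although the ranges overlapped. Abcb11 ranked next at 2860 ± 413 per kb and was separate from Abcb4 at 1538 ± 175. This order depends on the length used. With the median transcript length, Abcc2 came first in each group (17631 per kb in vehicle and 17779 in GDF15 liver), and in GDF15 liver Slco1b2, at 11720, was above Slc10a1, at 10377.

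GDF15 treatment was compared with vehicle first. Of the 9 carriers tested, Slc10a1, Slco1b2, Slco2b1 and Abcb11 rose and Abcc3, Abcc4 and Abcb4 fell, 7 changes in all, whereas 33.3% of the 14667 genes tested changed in this comparison (15.8% rose and 17.5% fell). Expression of 4 of them (Slc10a1, Abcb11, Abcc3 and Abcb4) did not overlap between the 2 groups, against 13.9% of the genes counted in this way. Only Abcc4 also passed the study's second threshold, an absolute log2 fold change above 1, which 6.27% of all genes passed together with the first. The median log2 difference was 0.25 over the 9 carriers and -0.00197 over all genes.

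**Figure D1:**
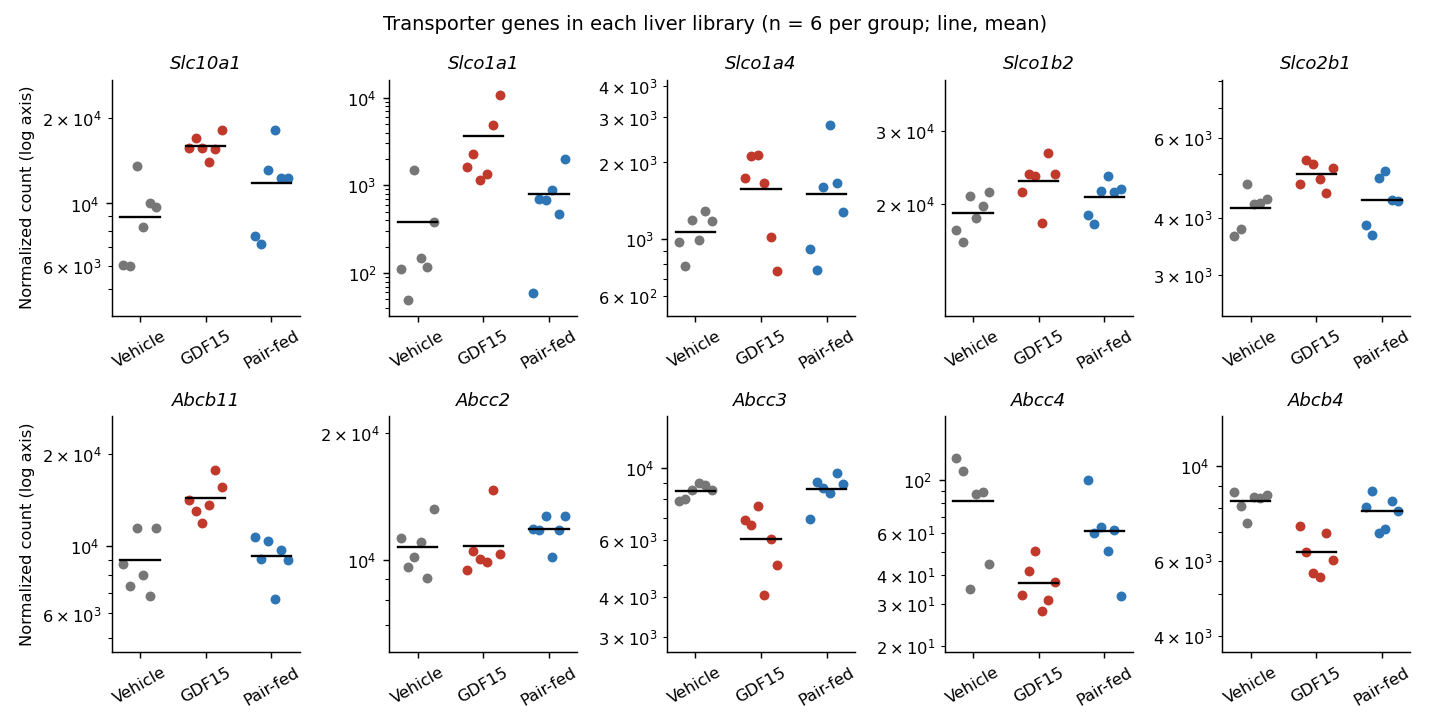
Normalized counts of the 10 carriers (log axes, each with its own range) in the vehicle, GDF15 and pair-fed libraries; points are libraries in the order of their replicate numbers and the line is the group mean (n = 6). Slc10a1 and Abcb11 of all 6 GDF15 libraries lie above all vehicle libraries, Abcc3 and Abcb4 lie below them, and Slco1a1 spreads from 48.97 to 10654.

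Slc10a1, the bile acid uptake carrier, ranged from 6033 to 13599 in vehicle libraries with a median of 8987. In the GDF15 libraries it ranged from 13955 to 18163 with a median of 15698. Pair-fed libraries spanned 7185 to 18195 with a median of 12286. All 6 GDF15 libraries were above every vehicle library, and the GDF15 group was also the tightest, with a coefficient of variation of 8.93% against 31.9% for vehicle and 34.2% for pair-fed. The log2 fold change against vehicle was 0.84 ± 0.21 (SE, n = 6 per group, DESeq2 adjusted p = 0.00042), a ratio of means of 1.79. Against the pair-fed group it was 0.44 ± 0.21 and did not pass (DESeq2 adjusted p = 0.0965), with a 95% interval of the log2 difference from 0.04 to 0.84. With replicates 1 to 3 of each group alone, the difference from vehicle was 0.92 and did not pass (DESeq2 adjusted p = 0.105). The call against pair-fed changed with the fit. With the replicate number as a block the log2 difference was 0.52 and passed (DESeq2 adjusted p = 0.0149). Pair-fed replicate 4 held the highest Slc10a1 of all 18 libraries, and without it the log2 difference was 0.61 with a DESeq2 adjusted p of 0.00997. With only the 3 smallest pair-fed libraries it was 0.78 and passed (DESeq2 adjusted p = 0.00484). With only the 3 largest it was 0.17 and did not pass (DESeq2 adjusted p = 0.651).

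Among the Slco carriers, Slco1b2, the one with the highest level per kb in each group, rose. It ranged from 16220 to 21411 (median 19153) in vehicle and from 18096 to 26563 (median 23502) in GDF15 libraries, and the pair-fed libraries lay between 17927 and 23373 (median 21471). The groups overlapped, with 4 of 6 GDF15 libraries above every vehicle library. The log2 fold change was 0.26 ± 0.09 (DESeq2 adjusted p = 0.0193). That call was lost when vehicle replicate 1 was left out (DESeq2 adjusted p = 0.0586), likewise vehicle replicate 2 (0.0663) or GDF15 replicate 5 (0.0705). Slco2b1, a broad organic anion carrier, showed a rise of the same size, 0.25 ± 0.08 on the log2 scale (DESeq2 adjusted p = 0.0133). Neither passed against vehicle with replicates 4 to 6 alone (adjusted p = 0.34 for Slco1b2 and 0.194 for Slco2b1), and Slco2b1 also did not with replicates 1 to 3 (0.0594). The Slco2b1 libraries spanned 3653 to 4748 (median 4303) in vehicle, 4544 to 5373 (median 5010) in GDF15 and 3659 to 5066 (median 4370) in pair-fed liver. Against pair-fed, neither passed: the log2 difference was 0.13 with an interval of -0.05 to 0.31 for Slco1b2, and 0.19 with an interval of 0.03 to 0.35 for Slco2b1 (DESeq2 adjusted p = 0.308 and 0.0766). Slco2b1 passed without pair-fed replicate 3 (0.0384) or replicate 4 (0.0192).

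Slco1a1, a male-predominant carrier of the mouse liver, was the most variable of the 10. In vehicle liver it ran from 48.97 to 1488 with a median of 133.9. The GDF15 libraries ran from 1144 to 10654 with a median of 1935, and the pair-fed libraries from 59.26 to 2012 with a median of 689.9. The lowest GDF15 library was thus below the highest vehicle library and below the highest pair-fed one, and 4 of 6 GDF15 libraries exceeded every vehicle library. The ratio of the GDF15 mean to the vehicle mean was 9.54, and to the pair-fed mean 4.55. The log2 fold changes were 3.25 ± 0.82 and 2.19 ± 0.82, given without a test because the gene was chosen for this pattern. Leaving out 1 library at a time gave 2.56 to 4.50 against vehicle and 1.49 to 2.70 against pair-fed, and with replicates 1 to 3 of each group alone the log2 difference from vehicle was 1.60. Within groups, the SD of Slco1a1 on the log2 scale was 1.57, which placed it at rank 7 among the 10883 genes with a mean of at least 50, whose median SD was 0.149. Slco1a4 (SD 0.545), Abcc4 (0.541) and Slc10a1 (0.40) were also among the more variable genes, at ranks 267, 273 and 660. Abcb4 was the steadiest of the 10 carriers, with an SD of 0.13.

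The neighbouring Slco1a4, a female-predominant carrier in mice, gave a different picture. It ran from 785 to 1293 (median 1087) in vehicle, from 755 to 2134 (median 1701) in GDF15 and from 759 to 2810 (median 1443) in pair-fed libraries. The difference from vehicle did not pass, with a log2 fold change of 0.56 ± 0.30 (DESeq2 adjusted p = 0.147), although it did when only the 2 groups entered the fit (adjusted p = 0.0396). In the GDF15 group replicates 1 to 3 lay at 1733 to 2134. Replicate 4 was just below them at 1668, and replicates 5 and 6 were lower, at 1026 and 755. The sets of replicates 1 to 3 and 4 to 6 overlapped in vehicle, at 785 to 1187 and 993 to 1293. They also overlapped in pair-fed liver, at 759 to 1602 and 1285 to 2810. With replicates 1 to 3 of all groups, Slco1a4 rose by 1.03 on the log2 scale (DESeq2 adjusted p = 0.000361). With replicates 4 to 6 the difference was -0.01 (DESeq2 adjusted p = 0.993). Against pair-fed, it was 0.87 (DESeq2 adjusted p = 0.00298) in the first set and -0.73 (adjusted p = 0.22) in the second. The 2 sets also differed in depth in the GDF15 and pair-fed groups, as given above, and the part of depth in these differences was not tested.

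In the summed level per kb of the 4 Slco carriers, the group means differed most for Slco1a1 and Slco1b2. Slco1b2 made up 81.3% ± 1.59 of the sum in vehicle liver, 73.9% ± 5.19 in GDF15 liver and 80.0% ± 2.4 in pair-fed liver (mean ± SD, n = 6). The share of Slco1a1 was 1.26% on average in vehicle, with a range of 0.210 to 4.70%. In GDF15 liver it averaged 9.16%, with a range of 3.21 to 24.3%, and in pair-fed liver 2.52%, with a range of 0.222 to 6.12%. GDF15 replicate 6 held 24.3% Slco1a1 and 1.75% Slco1a4, and GDF15 replicate 5 held 11.8% and 2.54%, so the 2 libraries with the most Slco1a1 had the least Slco1a4 of the group. These shares are a description. With median transcript lengths the Slco1a1 shares were 0.655, 5.11 and 1.34% in vehicle, GDF15 and pair-fed liver, and those of Slco1b2 were 62.0, 58.8 and 62.2%.

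**Figure D2:**
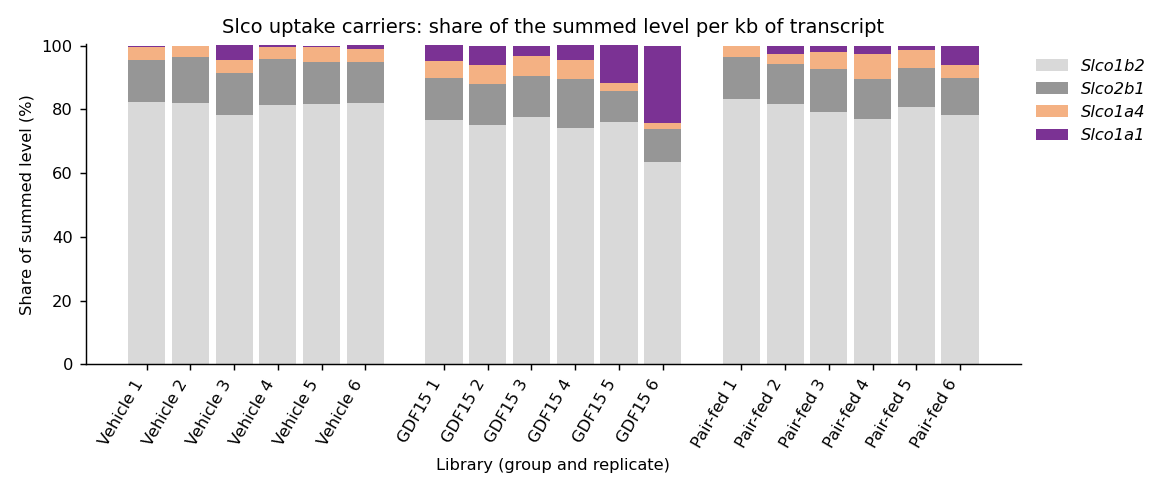
Share (%) of Slco1b2, Slco2b1, Slco1a4 and Slco1a1 in their summed normalized count per kb of longest transcript, 1 stacked bar per library. Slco1b2 fills 63.5 to 83.4% of each bar, and Slco1a1 reaches 24.3% in GDF15 replicate 6.

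At the canalicular face Abcb11 rose, Abcb4 fell and Abcc2 did not pass. Abcb11, the bile salt export pump, ranged from 6870 to 11457 (median 8403) in vehicle and from 11934 to 17769 (median 13903) in GDF15 libraries. The pair-fed libraries lay at 6705 to 10741 (median 9356). Abcb11 was the only carrier whose GDF15 libraries all stood above both control groups. The log2 fold change was 0.68 ± 0.14 against vehicle (DESeq2 adjusted p = 1.86e-05) and 0.63 ± 0.14 against pair-fed (DESeq2 adjusted p = 9.14e-05). Abcb4, the phospholipid exporter, had a log2 fold change of -0.40 ± 0.08 against vehicle and -0.32 ± 0.08 against pair-fed, and fell in both (DESeq2 adjusted p = 3.34e-06 and 0.000334). It spanned 7344 to 8719 (median 8462) in vehicle, 5480 to 7231 (median 6160) in GDF15 and 6976 to 8739 (median 7939) in pair-fed libraries. The GDF15 libraries were below all vehicle libraries, and 4 of 6 were below all pair-fed libraries. Abcc2, the conjugate exporter, spanned 9016 to 13181 (median 10578) in vehicle, 9465 to 14609 (median 10184) in GDF15 and 10122 to 12722 (median 11806) in pair-fed liver. Its log2 difference from vehicle was 0.01 with an interval of -0.20 to 0.22, and from pair-fed -0.13 with an interval of -0.34 to 0.08, and neither passed (DESeq2 adjusted p = 0.948 and 0.384). The second difference was -0.24 without GDF15 replicate 5, and then passed (DESeq2 adjusted p = 0.0269). It also passed with replicates 1 to 3 of each group alone, at -0.27 (DESeq2 adjusted p = 0.00655), and was 0.01 with replicates 4 to 6 (adjusted p = 0.976).

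Both blood-side pumps were lower with GDF15 than with vehicle. Abcc3 ranged from 7923 to 8990 (median 8558) in vehicle and from 4039 to 7618 (median 6348) in GDF15 libraries, with no overlap. Pair-fed libraries ranged from 6958 to 9632 (median 8800), and 5 of 6 GDF15 libraries were below all of them. It fell in both comparisons, with log2 fold changes of -0.49 ± 0.12 and -0.51 ± 0.12 (DESeq2 adjusted p = 0.000375 against vehicle and 0.000268 against pair-fed). With replicates 1 to 3 of each group alone neither difference passed, at -0.21 (DESeq2 adjusted p = 0.174) and -0.22 (adjusted p = 0.141). Abcc4, the least abundant carrier, lay at 34.91 to 123.7 (median 88.21) in vehicle, 28.26 to 50.16 (median 35.15) in GDF15 and 32.57 to 100.2 (median 60.74) in pair-fed libraries. The groups overlapped because vehicle replicates 3 and 6 were low, at 34.91 and 44.4. The log2 fold change against vehicle was -1.14 ± 0.29 (DESeq2 adjusted p = 0.000739), so that the GDF15 mean was 0.452 of the vehicle mean. Against pair-fed the difference was -0.72 ± 0.29 and just missed the threshold (DESeq2 adjusted p = 0.0525). That value lay close enough to the threshold that leaving out any of 6 single libraries brought it under, with adjusted p from 0.016 to 0.0485: vehicle replicates 1, 3 and 6, GDF15 replicate 3 and pair-fed replicates 4 and 6.

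The comparison with the pair-fed group is made at matched food intake. Against it, 3 of the 9 carriers tested changed: Abcb11 rose, and Abcc3 and Abcb4 fell, compared with 27.1% of the 14353 genes tested (13.3% rose and 13.8% fell). Of the 9, only Abcb11 did not overlap, against 10.9% of genes, so both shares were near those of all genes. No carrier also passed an absolute log2 fold change of 1, as 3.37% of all genes did. With replicates 1 to 3 of each group alone, Abcb11 and Abcb4 missed the threshold narrowly, at 0.38 (DESeq2 adjusted p = 0.0532) and -0.31 (adjusted p = 0.051), Abcc3 missed it as given above, and Slco1a4 and Abcc2 passed instead. Without pair-fed replicate 4 the count of changed carriers was 6, the additions being Slc10a1, Slco2b1 and Abcc4. With only the 3 smallest pair-fed libraries it was 6 as well, with the same additions. With only the 3 largest it was 3, and the log2 differences of those additions were 0.17, 0.12 and -0.38 (DESeq2 adjusted p = 0.651, 0.396 and 0.514).

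Between pair-fed and vehicle liver, 0 of 10 carriers changed, as did 0.0% of the 16242 genes tested (DESeq2). The groups overlapped for each of the 10 carriers, and 0.227% of genes did not overlap. At an unadjusted p below 0.05 the number of carriers was also 0 and that of all genes 718, and edgeR called 0 genes. Some other DESeq2 fits called a few genes: 3 with only the 2 groups, 3 with the replicate block and 4 with replicates 1 to 3. With replicates 4 to 6 the number was 18, and with the 3 largest pair-fed libraries 31. No carrier passed in these fits. The largest log2 differences were 1.07 ± 0.82 for Slco1a1, 0.49 ± 0.30 for Slco1a4, -0.42 ± 0.28 for Abcc4 and 0.40 ± 0.21 for Slc10a1. With replicates 1 to 3 of each group alone, the Slco1a1 difference was -0.20. The 95% intervals over all libraries were wide, from -0.54 to 2.67 for Slco1a1 and from -0.01 to 0.80 for Slc10a1. Those of Abcb11 (-0.23 to 0.32), Abcc3 (-0.21 to 0.25) and Abcb4 (-0.23 to 0.07) were narrower. Each control group served in 2 of the 3 comparisons, as did the GDF15 group, so the 3 sets of values are not independent.

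**Figure D3:**
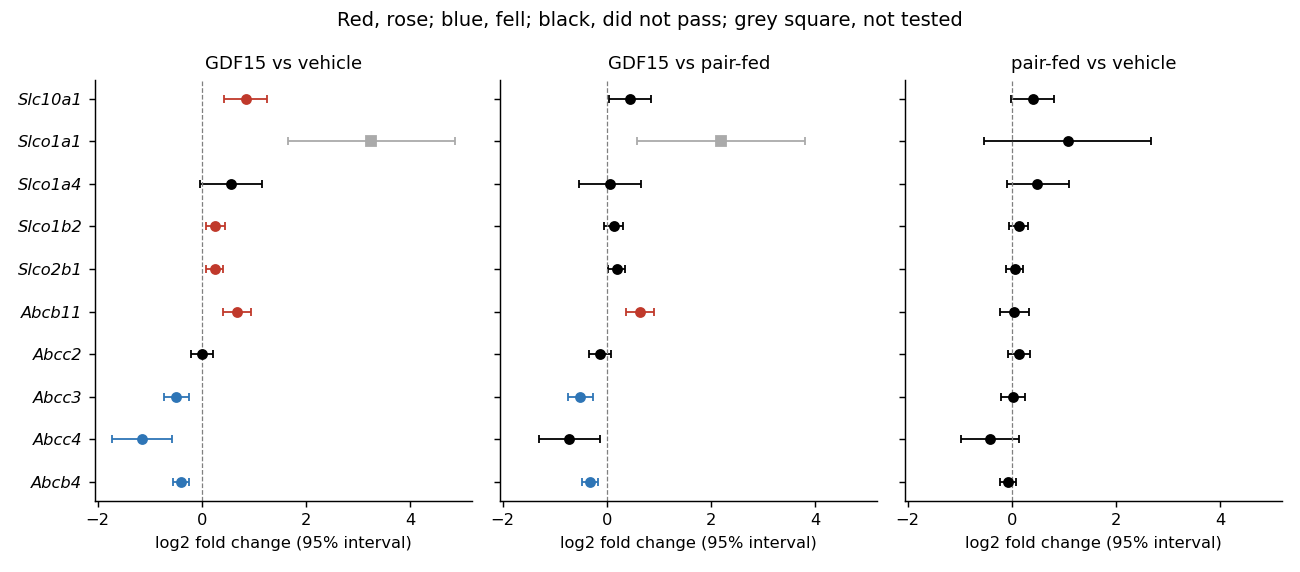
Log2 fold changes of the 10 carriers in the 3 comparisons with 95% intervals (DESeq2, n = 6 per group); red rose, blue fell, black did not pass and grey squares were not tested. Abcb11, Abcc3 and Abcb4 are coloured in both GDF15 comparisons, and all 10 carriers are black in the comparison of pair-fed with vehicle.

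Within groups, several carriers varied together. After subtracting group means of log2(normalized count + 1), 8 of the 45 pairs of carriers had a Pearson correlation above 0.5 over the 18 libraries and 3 had one below -0.5. The uptake carriers went together: Slc10a1 had a correlation of 0.91 with Slco2b1 and 0.76 with Slco1b2. Slc10a1 and Slco1a1 were related at 0.66, while Slco1a1 and its neighbour Slco1a4 were at 0.00. Abcb11 had a correlation of 0.69 with Abcc2 and 0.01 with Slc10a1. The correlations of Abcc4 with the uptake carriers were negative, at -0.80 with Slco1a1, -0.62 with Slc10a1, -0.44 with Slco2b1, -0.43 with Slco1b2 and -0.18 with Slco1a4. The remaining pair below -0.5 was Slco2b1 with Abcb4, at -0.64. Across the libraries, the vehicle replicate with the most Slco1a1 (replicate 3) had the least Abcc4 of its group, as did the pair-fed replicate with the most (replicate 6). In the GDF15 group this was not so, as replicate 6, with the most Slco1a1, had 37.37 Abcc4 and replicate 4 had the least, 28.26. These correlations share libraries and size factors and carry no test.

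**Figure D4:**
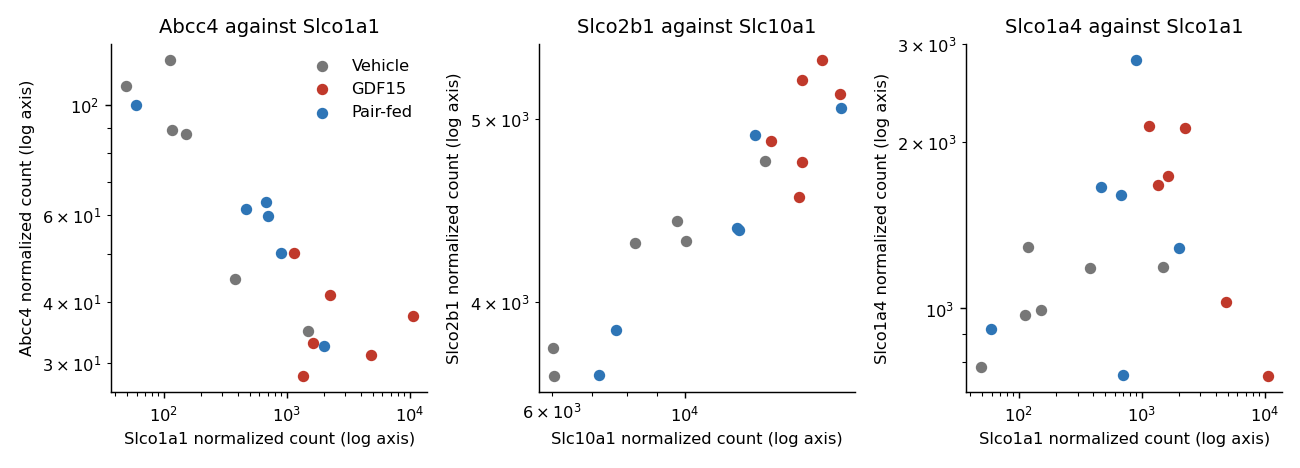
Normalized counts (log axes) of Abcc4 against Slco1a1, Slco2b1 against Slc10a1 and Slco1a4 against Slco1a1; each point is a library (18 in all) coloured by group. The within-group correlations of the log2 values are -0.80, 0.91 and 0.00.

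The genes whose within-group pattern was most like that of Slco1a1, among 10882 others with a mean of at least 50, were Slc22a28 (Pearson 0.935, Spearman 0.936), Mup7 (0.914 and 0.92), Serpina1c (0.914 and 0.87), Mup21 (0.909 and 0.922) and Mup12 (0.908 and 0.959). Without the 2 libraries farthest from the median of Slco1a1, the Pearson values were 0.863 to 0.925. Mup genes encode major urinary proteins, and these and the Serpina1 genes are families of near-identical copies, so the reads of single members are uncertain. Their log2 differences between GDF15 and vehicle were 2.10 for Slc22a28, 4.93 for Mup7, 1.14 for Serpina1c, 0.79 for Mup21 and 3.83 for Mup12.

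Because Slco1a1 is male-predominant and Slco1a4 female-predominant, other sex-biased genes were counted. Of 15 male-biased hepatocyte genes 8 rose and 1 fell against vehicle, with a median log2 difference of 0.62. Hsd3b5, a steroid dehydrogenase, was at 0 to 58.2 in vehicle and 18 to 2360 in GDF15 libraries, with overlap and a mean of 513 ± 919 (SD) in the treated mice (log2 fold change 5.28 ± 1.21, DESeq2 adjusted p = 0.000142), and Elovl3, a fatty acid elongase, rose by 1.53. Mup20 fell, by 0.75. Leaving out GDF15 replicate 6, the library with the most Slco1a1, reduced the count from 9 changed to 5, and with replicates 1 to 3 of each group alone it was 2. Against pair-fed, 4 rose and 1 fell. Of the female-biased genes, 5 of the 12 tested rose and 0 fell, with Prlr, the prolactin receptor, at 1.19 ± 0.18 and Cyp17a1 at 0.83 ± 0.15 (DESeq2 adjusted p = 2.65e-09 and 3.63e-07). That count was 3 without vehicle replicate 4 or without GDF15 replicate 4, and 3 rose and 0 fell against pair-fed. Genes of both lists therefore rose against vehicle.

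Other carriers of bile and related families changed in both directions. Among 14 further bile acid and canalicular transporters, 4 rose and 2 fell against vehicle, which is 42.9% against 33.3% of all genes. Slc10a5, a relative of Slc10a1, rose by 0.70, and the sterol exporters Abcg8 and Abcg5 by 0.60 and 0.41 on the log2 scale (DESeq2 adjusted p = 0.000478, 0.00177 and 0.0205). The multidrug pumps Abcb1a and Abcg2 fell by 0.83 and 0.46 (DESeq2 adjusted p = 0.00559 and 8.21e-05). Against pair-fed 2 of 13 rose and 2 fell, which is 30.8% against 27.1% of all genes. This count of 4 dropped to 2 on leaving out GDF15 replicates 4, 5 or 6 or pair-fed replicates 2 or 5. Among other Slco genes, only 4 of 8 had an adjusted p. The prostaglandin carrier Slco2a1 rose by 1.11 ± 0.14 against vehicle (DESeq2 adjusted p = 1.74e-12) and by 0.85 against pair-fed. Slco1a6, of the same cluster as Slco1a1, rose by 0.41 and Slco3a1 fell by 0.89 (DESeq2 adjusted p = 0.0421 and 0.000445). The count of 3 changed against vehicle among these Slco genes was 2 with edgeR and with replicates 1 to 3 or 4 to 6 alone. It was also 2 without some single libraries. Of 6 other Abcc genes, 1 rose (Abcc6, 0.24) and 3 fell against vehicle, among them Abcc1 by 0.59 and Abcc5 by 0.58. Against pair-fed 1 rose and 2 fell.

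Genes of bile acid synthesis rose more often than they fell. Of 17 synthesis and conjugation genes, 7 rose and 2 fell against vehicle, and the same numbers against pair-fed. Cyp27a1 and Cyp7b1, enzymes of the alternative pathway, rose against vehicle by 0.76 ± 0.08 and 1.38 ± 0.28, and Cyp2c70, which makes muricholic acids in mice, by 1.15 ± 0.13 (DESeq2 adjusted p = 1.01e-17, 1.48e-05 and 2.31e-15). Cyp7a1, the rate-limiting enzyme of the classical pathway, had a log2 difference of 0.58 ± 0.57 and Cyp8b1, which makes cholic acid, one of 0.01 ± 0.18 (DESeq2 adjusted p = 0.461 and 0.968). Cyp7a1 spanned 554 to 3700 in vehicle and 1290 to 3750 in GDF15 libraries. The peroxisomal enzymes Hsd17b4 and Scp2 fell by 0.27 and 0.16.

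Regulators known to act on these carriers were examined too. Nr1h4, the bile acid receptor FXR, was at 2270 to 3050 in vehicle and 2290 to 3300 in GDF15 libraries (log2 difference 0.07 ± 0.11, DESeq2 adjusted p = 0.657), and Nr0b2, its target SHP, did not pass at 0.62 ± 0.32 (DESeq2 adjusted p = 0.126). Hnf4a, a master regulator of hepatocyte genes, rose by 0.54 ± 0.06 (DESeq2 adjusted p = 3.93e-15). Nr1i3 and Nr1i2, the xenobiotic receptors CAR and PXR, rose against vehicle by 0.69 and 0.25 (DESeq2 adjusted p = 0.0329 and 0.0267). Klb, the FGF15 co-receptor, rose by 0.59. Against pair-fed Nr1i3 and Nr1i2 did not pass (DESeq2 adjusted p = 0.0755 and 0.122), whereas Klb did (0.000605). Stat5a fell by 0.33, and Stat5b stood at 0.14 ± 0.11 and did not pass (DESeq2 adjusted p = 0.325). Nfe2l2, which encodes NRF2, fell by 0.41. In all, 11 of the 20 regulators tested rose and 2 fell against vehicle, and 8 rose and 1 fell against pair-fed. Abcc2, Abcc3 and Abcc4 are known NRF2 targets, of which Abcc2 did not pass. Of 13 other NRF2 targets 8 fell and 0 rose against vehicle, while 6 fell and 0 rose against pair-fed. Gstm3 fell by 1.83, Srxn1 by 1.10 and Nqo1 by 0.82 on the log2 scale against vehicle.

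**Figure D5:**
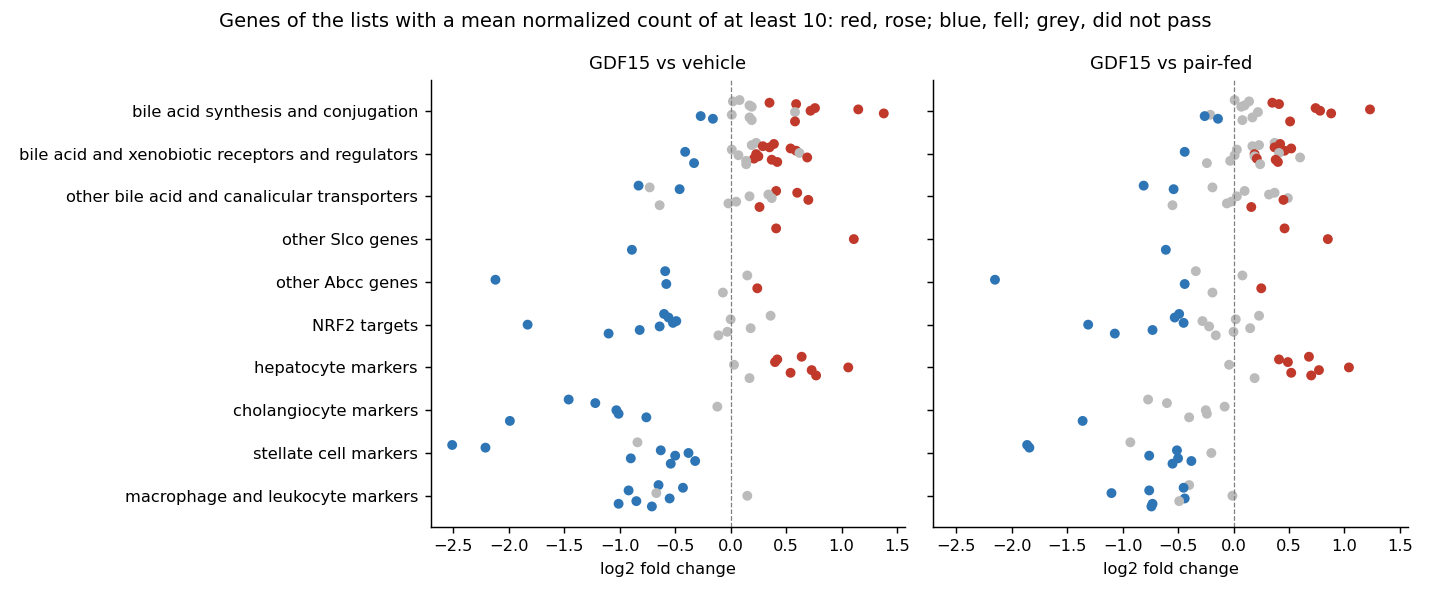
Log2 fold changes against vehicle (left) and pair-fed (right) of genes in the lists named on the axis, for genes averaging 10 or more normalized counts (DESeq2, n = 6 per group); red rose, blue fell, grey did not pass. No NRF2 target is red, all coloured hepatocyte markers lie above 0, and all coloured cholangiocyte, stellate cell, macrophage and leukocyte markers lie below it.

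Markers of the liver's cell types moved with the groups as well, and in bulk tissue fewer cells of a type cannot be told apart from less RNA per cell. Of 9 hepatocyte markers 7 rose and 0 fell against vehicle, with a median log2 difference of 0.54 (lowest 0.03, highest 1.06), and against pair-fed the median was 0.52. Hnf4a, given above as a regulator, is 1 of these 9 markers, and its differences of 0.54 and 0.52 equalled the medians. The summed level of the 9 markers was 1618000 to 2036000 in vehicle, 2290000 to 2686000 in GDF15 and 1486000 to 2208000 in pair-fed libraries. The log2 differences from vehicle of Slc10a1 (0.84) and Abcb11 (0.68) were above that median and those of Slco1b2 (0.26) and Slco2b1 (0.25) below it. Those of Abcc3, Abcc4 and Abcb4 had the opposite sign. Stellate cell markers fell in 8 of 9 cases against vehicle, with summed levels of 8599 to 14510 in vehicle and 4327 to 6642 in GDF15 libraries. Col1a1 fell by 2.51. Macrophage and leukocyte markers fell in 7 of 10 (summed 4422 to 8905 in vehicle, 2913 to 5829 in GDF15), and cholangiocyte markers in 7 of 9 (2788 to 9127 against 1400 to 2457). Without vehicle replicate 1 these counts were 5, 4 and 4. Against pair-fed they were 7, 6 and 1, and the sums in pair-fed libraries were 7803 to 12110, 4345 to 7067 and 2524 to 6492. Most of the cholangiocyte sum was Spp1, with means of 4867 in vehicle, 1227 in GDF15 and 3145 in pair-fed liver. Spp1 was also the 1 cholangiocyte marker that fell against pair-fed (log2 difference -1.36, DESeq2 adjusted p = 0.00133). Sinusoidal endothelial markers rose in 1 and fell in 2 of 8 against vehicle (1 of 8 without GDF15 replicate 5), and fell in 1 of 8 against pair-fed. Of the enterocyte markers, which this liver also expressed in part, 2 of 4 fell in both comparisons. The 1 kidney tubule marker in the table, Slc22a12, averaged under 3 counts in each group. The part of the cell type markers in the differences between carriers was not tested.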

How the data were processed

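Libraries were made from liver total RNA with a directional kit, and per the labels the authors trimmed reads with Trim Galore and quantified them with Salmon on mm10. Tool versions are not given in the sources used here. The deposited values are counts per gene, Salmon estimates in whole numbers, for 16245 genes (lowest row total 5) and 18 samples. 0 columns were left unused. Groups came from the sample labels.

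Counts were tested with DESeq2 1.42.0 in R 4.3.3 (median-of-ratios size factors, all 18 samples, group as the only term, Wald test, Benjamini-Hochberg adjustment over all genes). Levels per kb used the longest GENCODE transcript. Correlations used log2(normalized count + 1). The tests were tried on simulated data first. Alternatives were edgeR 4.0.16, TMM size factors, filters, only the 2 groups compared, a replicate block, replicate subsets, other transcript lengths and leaving out each library. Of each list, at most the 3 largest rises and 3 largest falls against vehicle (adjusted p below 0.05, mean of at least 50) were named, plus fixed regulators, Cyp7a1, Cyp8b1 and some markers. The marker Tf, the mouse symbol of which differs, Fabp6, Abcc8 and 4 kidney markers matched no row. The genes and lists were chosen with earlier results of these data known. Pairs of libraries within a group differed beyond counting noise (chi-square per degree of freedom 7.89 to 89.5), so each library was counted as 1 sample. Results for some genes are not reported here.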

Additional observations from a re-analysis of the deposited data

Results flagged for a closer look

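In 30 sets of 6 libraries (10 carriers in 3 groups), a single library stood apart on the log scale in 2, where chance alone gives 1.5. Both concerned Abcc2, the canalicular conjugate pump. GDF15 replicate 5 was the highest of its group at 14609 normalized counts, with the nearest other library at 10468. On log values this gap was 0.768 of the range. Pair-fed replicate 4 was the lowest of its group at 10122, with the nearest at 11736, a gap of 0.647 of the range of log values. On untransformed counts the flagged libraries would differ. GDF15 replicate 5 also had the highest Abcb11 of the 18 libraries (17769), and pair-fed replicate 4 the lowest (6705).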

How the results depend on the processing

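Of 820 recomputed values for the 30 carrier comparisons, 782 were counted as unchanged. Of the rest, 11 were no longer past the threshold, 21 moved past it and 6 moved beyond the spread between replicates, and 0 called values reversed. Many of the 820 values had little room to move. Leaving out a library of the group outside a comparison kept its fold change nearly fixed, though the adjusted p could shift. Between pair-fed and vehicle there was no call to lose. The total is therefore not a measure of how robust the results are. A value counted as unchanged could still change sign near 0. The Abcc2 difference from vehicle, 0.01, ran from -0.09 to 0.08 without single libraries. The Slco1a1 values of the GDF15 comparisons carry no test, so they had no side of the threshold to keep. With an absolute log2 fold change above 1 required as well, 1 carrier changed against vehicle and 0 against pair-fed. Leaving out single libraries gave 6 to 7 carriers against vehicle, 3 to 6 against pair-fed (6 without pair-fed replicate 4) and 0 each time between pair-fed and vehicle. Only the 3 smallest pair-fed libraries gave 6 against pair-fed. With the replicate number as a block, the count against pair-fed was 5, the additions being Slc10a1 (DESeq2 adjusted p = 0.0149) and Slco2b1 (0.0279), and no other carrier's call changed. The labels do not say that the numbers pair the samples, and the check did not show it for all pairs: deviations of same-numbered libraries correlated at -0.298 to 0.227 between vehicle and GDF15, 0.0505 to 0.637 between vehicle and pair-fed (mean 0.221 against -0.0442 for other pairs) and -0.322 to 0.227 between GDF15 and pair-fed. With median instead of longest transcript lengths, 3 of the 10 carriers kept their rank in level per kb. Of the 5 genes most like Slco1a1, 3 to 5 remained among the 5 highest when single libraries were left out. The cause of these shifts was not tested. Abcc4 was measured at the lowest depth of the 10 carriers.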
